A study of Rattus norvegicus with 4 samples.

Results

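A set of 10 genes of the meiotic and later male germ line was followed across the 4 arrays of a study of FSH suppression in the young rat testis. It holds the synaptonemal complex genes Sycp1, Sycp2 and Sycp3 and 7 genes of later stages, Ldhc, Hspa2, Pdha2, H2bc1, Spa17, Odf2 and Tnp1. A member was every probe set whose platform annotation gives exactly 1 gene symbol and that symbol is one of these; each of the 10 genes had 1 such probe set, among 4737 genes with a single-symbol probe set, and all 10 passed the filter on dim probe sets. The list was drawn up with the values of these arrays known, after Ldhc and Hspa2 had been seen to differ between arrays of the same treatment, so the members' values are given as a description.

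The tested animals were male Sprague Dawley rats, an outbred strain, injected for 4 days with a sheep antibody raised against rat FSH, and the controls received a sheep control immunoglobulin for 4 days. Each treatment had 2 arrays of RNA from testis, here called antibody 1 and antibody 2, control 1 and control 2. By the treatment protocol injections began on postnatal day 18 and tissue was taken on day 22, whereas the series design puts the start at day 14; the title of antibody 2 names postnatal day 4, and its source name the FSH antibody at day 18. Per the labels' protocols about 20 organs were pooled for each RNA sample, organs that the text calls ovaries, while each source name gives testis and 1 animal. Nothing settles how many animals an array stands for. The p-values set the difference between groups against a spread between these arrays, partly borrowed from other probe sets, and that spread may be technical. In bulk RNA, fewer cells of a type and less RNA per cell cannot be told apart.

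Spermatogenesis in a young testis begins as a first wave, in which spermatogonia enter meiosis, become spermatocytes and later form haploid spermatids. In early meiotic prophase the homologous chromosomes are joined by the synaptonemal complex, a zipper of SYCP proteins, and at the pachytene stage that follows, the spermatocyte switches on testis versions of metabolic enzymes, chaperones and histones. In mice this switch depends on the transcription factor MYBL1, and many spermatid genes depend on the cAMP-responsive factor CREM. FSH acts on the Sertoli cells that nurse the germ cells.

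The promoters of 4 members are shown because these genes differed in pattern between arrays. Ldhc and Hspa2 varied most, Sycp3 is the brightest of the synaptonemal genes, and Tnp1 was lowest where Ldhc was highest. Each runs 5′ to 3′ from 250 bases before to 50 bases after the annotated gene start, from RefSeq on assembly GRCr8. Capitals mark the core motif of MYB factors, AACNG on either strand with overlapping matches joined, in Ldhc, Hspa2 and Sycp3, and the cAMP response element TGACGTCA in Tnp1.
Ldhc, chr1:106522745-106523044, plus strand: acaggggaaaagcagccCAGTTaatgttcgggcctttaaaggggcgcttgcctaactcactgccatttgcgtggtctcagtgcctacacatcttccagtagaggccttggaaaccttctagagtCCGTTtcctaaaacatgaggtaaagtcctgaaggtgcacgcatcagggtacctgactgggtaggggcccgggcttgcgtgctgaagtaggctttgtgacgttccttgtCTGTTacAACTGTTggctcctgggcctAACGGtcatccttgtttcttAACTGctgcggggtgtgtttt
Hspa2, chr6:100864192-100864491, plus strand: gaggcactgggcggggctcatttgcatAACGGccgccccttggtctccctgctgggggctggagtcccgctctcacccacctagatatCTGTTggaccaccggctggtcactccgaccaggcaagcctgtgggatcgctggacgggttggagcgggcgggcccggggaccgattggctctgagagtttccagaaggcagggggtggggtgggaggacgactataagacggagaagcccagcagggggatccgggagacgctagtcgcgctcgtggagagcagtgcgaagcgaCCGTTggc
Sycp3, chr7:24761226-24761525, plus strand: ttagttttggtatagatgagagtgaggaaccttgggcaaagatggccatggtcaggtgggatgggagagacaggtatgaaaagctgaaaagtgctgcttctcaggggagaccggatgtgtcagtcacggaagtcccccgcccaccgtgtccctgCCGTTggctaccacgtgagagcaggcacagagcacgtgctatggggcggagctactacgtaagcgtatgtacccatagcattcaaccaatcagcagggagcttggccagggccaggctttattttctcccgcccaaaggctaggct
Tnp1, chr9:82044229-82044528, minus strand: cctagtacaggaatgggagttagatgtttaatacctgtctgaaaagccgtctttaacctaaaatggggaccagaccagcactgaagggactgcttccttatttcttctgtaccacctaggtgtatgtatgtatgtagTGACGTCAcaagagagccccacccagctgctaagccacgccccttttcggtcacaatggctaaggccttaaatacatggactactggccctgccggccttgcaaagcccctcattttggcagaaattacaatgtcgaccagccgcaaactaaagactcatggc

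The Ldhc window held 7 matches to the MYB core, the Hspa2 window 3 and the Sycp3 window 1. Sycp1, Pdha2 and H2bc1 also had 3 each and Sycp2 had 2, so the count did not separate Hspa2 from the synaptonemal genes. At least 1 match was present in 81.4% of the 33469 promoter windows of the same length in the RefSeq table, 3 or more in 27.95%, and 7 or more in 0.571%. The Tnp1 window held the full cAMP response element, beginning 113 bases before the start, and no MYB core; the full element was present in 1.83% of all windows. Promoters were found for 9 of the 10 members, Spa17 being the exception. None of the other member windows held the full element. A match is a run of letters and was not tested as a binding site.

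The synaptonemal genes had intensities of at least 87.0 on all 4 arrays and spanned less between arrays than the pachytene genes. Without detection calls, whether they were above background was not tested. Sycp1 encodes the transverse filament of the complex; its intensity was 98.4 and 100.1 on antibody 1 and antibody 2, against 143.1 and 87.0 on control 1 and control 2. Sycp2, a component of the lateral elements along each chromosome axis, had 117.1 and 104.6 on the antibody arrays and 121.5 and 93.8 on the control arrays. Sycp3, the partner of Sycp2 in the lateral elements, had 795.0 and 574.2 on the antibody arrays and 750.6 and 922.3 on the control arrays. The values of the groups overlapped for all 3 genes, and no array was lowest for all of them. On the log2(intensity + 16) scale used throughout, the whole range over the 4 arrays was 0.63 for Sycp1, 0.32 for Sycp2 and 0.67 for Sycp3. From high to low, the order of the arrays for Sycp3 was control 2, antibody 1, control 1, antibody 2. Ldhc, Hspa2, Pdha2 and H2bc1, described next, had the same order, with control 1 and antibody 2 close together for Ldhc and Hspa2. Sycp1 and Sycp2 had other orders. The array titled postnatal day 4, antibody 2, carried Sycp1 and Sycp2 within the range of the others and the lowest Sycp3.

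The genes switched on at pachytene spanned a wider range. Ldhc, the lactate dehydrogenase of spermatocytes and sperm, had intensities of 143.6 and 41.3 on antibody 1 and antibody 2, against 41.6 and 333.6 on control 1 and control 2. Hspa2, a testis chaperone of the HSP70 family that is needed in mice to take the synaptonemal complex apart, had 358.1 and 142.6 on the antibody arrays and 150.1 and 505.9 on the control arrays. For both genes control 2 was highest, antibody 1 came next, and control 1 and antibody 2 lay close together at the low end. Each treatment therefore held a high and a low array, and the groups overlapped fully.

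The other pachytene genes followed with smaller steps. Pdha2, the testis subunit of pyruvate dehydrogenase, had intensities of 92.2 and 49.3 on the antibody arrays and 79.6 and 118.8 on the control arrays. H2bc1, the testis histone H2B that replaces its somatic counterpart in meiosis, had 58.3 and 26.5 on the antibody arrays and 49.4 and 90.3 on the control arrays. Control 2 was again highest and antibody 1 second, and antibody 2 was lowest for both, with control 1 between.

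Of the genes best known from spermatids and sperm, 2 kept control 2 on top and 1 did not. Spa17, a sperm surface and fibrous sheath protein, had 178.2 and 120.7 on the antibody arrays and 105.8 and 302.6 on the control arrays, the same order as Ldhc at the high end. Odf2, of the outer dense fibres of the sperm tail and of centrosomes in other cells, had 164.2 and 155.0 on the antibody arrays and 101.4 and 200.3 on the control arrays, with control 1 apart at the low end. Tnp1, the transition protein that replaces histones in elongating spermatids, had 23.2 and 43.3 on the antibody arrays and 30.1 and 19.5 on the control arrays. Its order was the reverse of Ldhc at the ends, lowest on control 2 and highest on antibody 2, at a mean log2 level of 5.46 that was close to the filter level of 5.30, an intensity of about 23.4. No detection calls were used, so whether Tnp1 was above background on any array cannot be told.

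**Figure D1:**
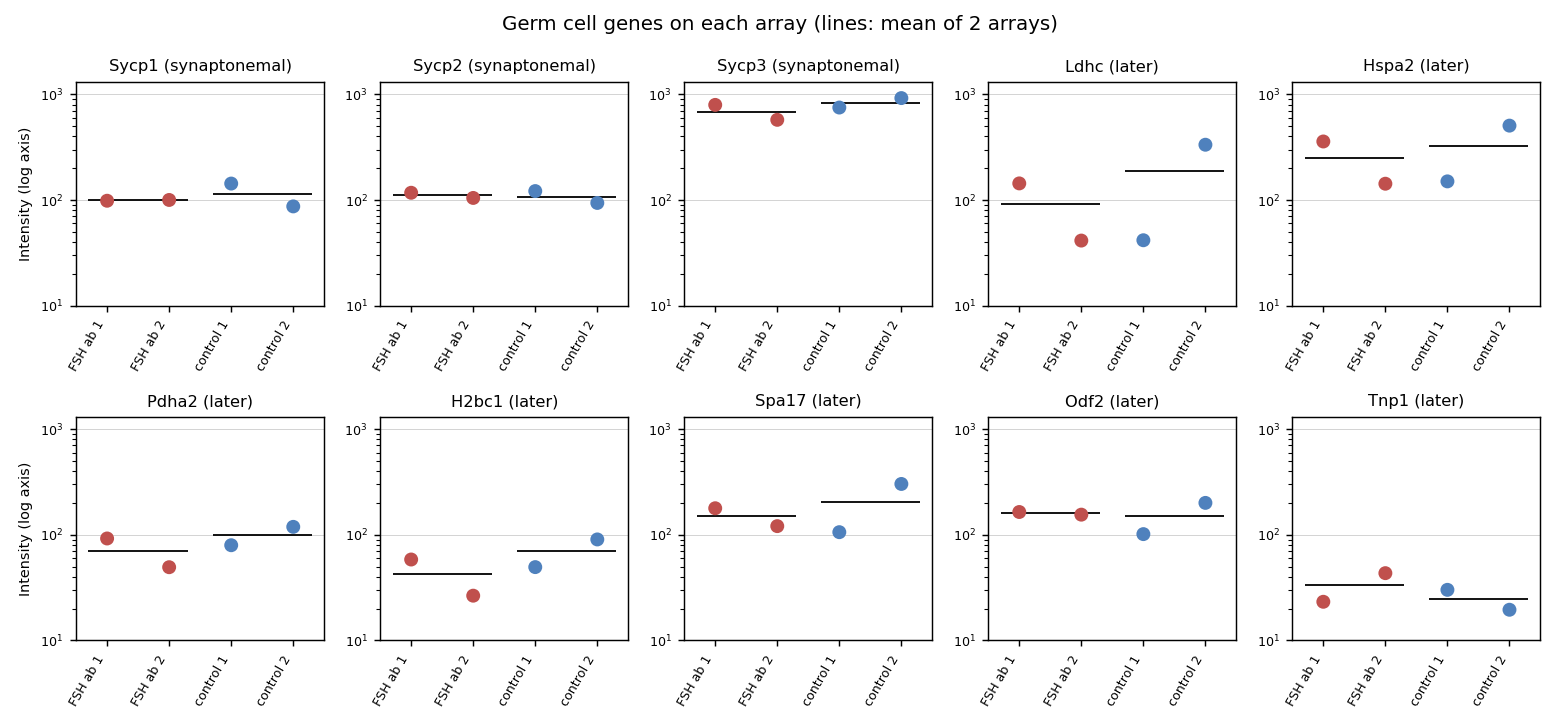
Intensity of the 10 genes on each array, on a log axis that is the same in every panel; red points are the FSH antibody arrays, blue points the control arrays, and lines the mean of 2 arrays. Ldhc lies at 143.6 and 41.3 on the antibody arrays and at 41.6 and 333.6 on the control arrays, while Sycp1 stays between 87.0 and 143.1.

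Set against each gene's own mean over the 4 arrays, most of the later genes were highest on control 2, and the Sycp genes shared no order. The median deviation of the 7 later genes was 0.12 on antibody 1, −0.58 on antibody 2, −0.51 on control 1 and 0.64 on control 2. For the 3 Sycp genes it was 0.08 on antibody 1, −0.07 on antibody 2, 0.14 on control 1 and −0.18 on control 2. Control 2 thus carried the highest relative levels of the later genes and the lowest of the Sycp genes, although within the Sycp genes Sycp3 was highest there.

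**Figure D2:**
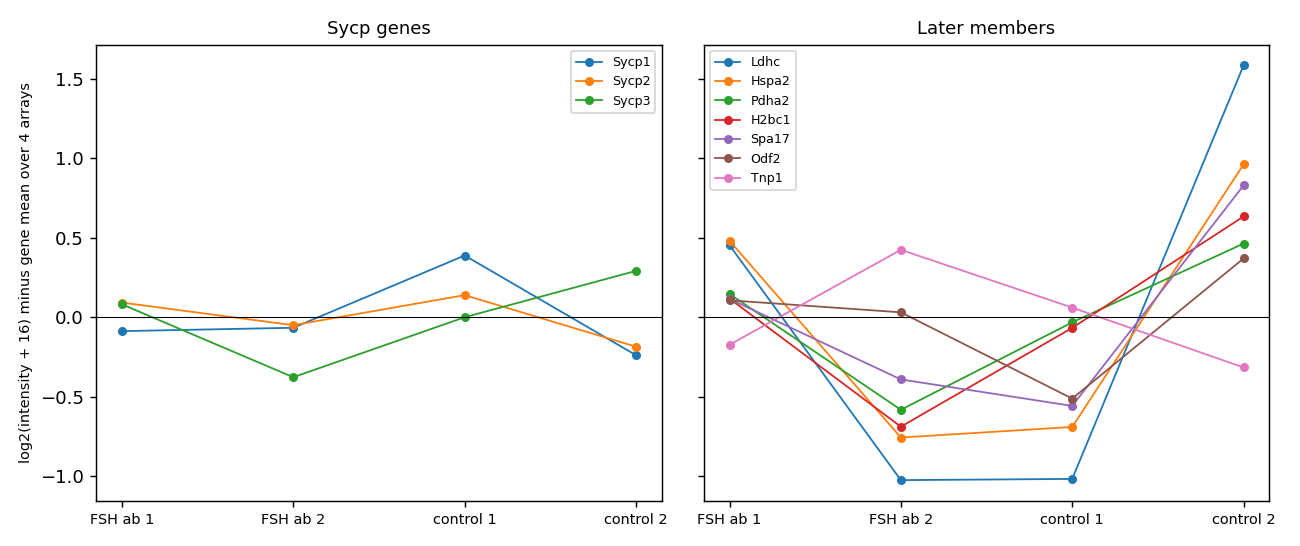
Log2(intensity + 16) of each gene minus its mean over the 4 arrays, for the Sycp genes (left) and the later members (right); lines only join the values of a gene. Later members except Tnp1 peak on control 2, at 0.37 for Odf2 to 1.59 for Ldhc, and the Sycp genes stay between −0.38 and 0.39.

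Differences between the arrays of one treatment were then read gene by gene, with no test, since each side is 1 array. Between control 2 and control 1 the log2 difference was 2.60 for Ldhc, the largest rise of the 5252 probe sets tested. It was 1.65 for Hspa2 and 1.39 for Spa17, values that 0.114% and 0.209% of the tested probe sets reached. These 3 were the members at least 2-fold higher on control 2, where 0.628% of tested probe sets were, and 0 members were at least 2-fold lower, where 0.533% were. Odf2 gave 0.88, H2bc1 0.70 and Pdha2 0.50. The remaining members were Sycp3 at 0.29, Sycp2 at −0.32, Tnp1 at −0.38 and Sycp1 at −0.63. The median over the 7 later genes was 0.88 and over the Sycp genes −0.32, against −0.05 over all tested probe sets.

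Between antibody 1 and antibody 2 the steps of Ldhc, Hspa2, Spa17 and Odf2 were smaller than between the controls, and those of H2bc1, Pdha2 and Tnp1 were larger. The log2 difference was 1.48 for Ldhc and 1.24 for Hspa2, and these 2 members were at least 2-fold higher, where 1.05% of tested probe sets were; 0 members were at least 2-fold lower, where 0.533% were. H2bc1 gave 0.81, Pdha2 0.73, Spa17 0.51 and Odf2 0.08, and Tnp1 gave −0.60. The value of Spa17 was reached by 6.05% of tested probe sets, and that of Sycp3, 0.46, by 7.69%. Sycp2 gave 0.14 and Sycp1 −0.02. The median was 0.73 over the later genes and 0.14 over the Sycp genes, against −0.0022 over all tested probe sets. The median of the later genes was 0.43 here with a constant of 64, and 1.39 between the controls with the 60th percentile filter, which leaves out H2bc1 and Tnp1. Both differences were positive for 6 of the 7 later genes and 1 of the 3 Sycp genes, where 19.9% of tested probe sets were positive in both.

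Only 4 of the 5252 tested probe sets (0.0762%) were at least 2-fold higher on control 2 than control 1 and also on antibody 1 than antibody 2. They were Ldhc, Hspa2, Fabp9 and Mapk8ip2, which made up 12.1% of the 33 probe sets past this fold in the controls and 7.27% of the 55 past it in the antibody group. The 4 were picked out by their values. With the added constant at 1 in place of 16 the count was 7, and with 64 it was 1 (Hspa2). In the opposite direction 1 probe set (0.019%) was 2-fold apart in both treatments. There were 2 (0.0381%) higher on control 2 and antibody 2, and 0 higher on control 1 and antibody 1.

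**Figure D3:**
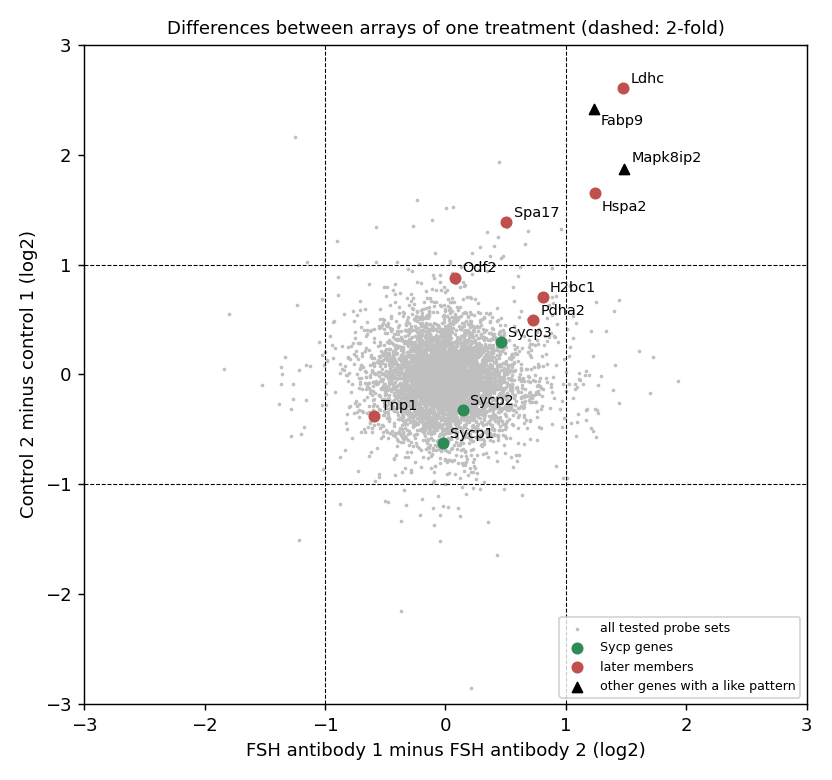
Difference between the 2 FSH antibody arrays (horizontal) and between the 2 control arrays (vertical) for all 5252 tested probe sets (grey) on the log2(intensity + 16) scale, with the Sycp genes in green, the later members in red and 2 other genes as triangles; dashed lines mark 2-fold. Ldhc at 1.48 and 2.60 and Hspa2 at 1.24 and 1.65 lie in the upper right corner with Fabp9 and Mapk8ip2, apart from the cloud that holds the Sycp genes.

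Genes outside the list with a like pattern were ranked by their distance from the mean centred profile of Ldhc, Hspa2 and Spa17, taken as the root mean square difference over the 4 arrays. The nearest was Fabp9, a lipid-binding protein of testis germ cells, at a distance of 0.199, with 185.0 and 69.6 on the antibody arrays and 59.2 and 385.7 on the control arrays. Next came Mapk8ip2, a scaffold of JNK signalling, at 0.209, with 67.0 and 13.7 on the antibody arrays and 11.3 and 83.6 on the control arrays. Phf7, a chromatin factor of male germ cells, followed at 0.291, with 163.3 and 109.9 on the antibody arrays and 92.1 and 257.1 on the control arrays. All 3 repeated the high and low array of each treatment. The other 9 of the 12 nearest, at distances from 0.335 to 0.460, were Ndufaf3, Fam216a, Xrcc5, Lrrc56, Cirbp, Dnaaf1, Bdnf, Cldn3 and Nudt1; Dnaaf1 and Lrrc56 take part in assembling the dynein arms of cilia and flagella, and Xrcc5 encodes the larger Ku subunit of DNA end joining. The median distance over all tested probe sets was 0.819, and Sycp2, Sycp1 and Tnp1 lay beyond it at 0.871, 0.974 and 1.04.

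Ranked by the smaller of the differences within each treatment, the 12 leading genes included the members Ldhc, Hspa2 and H2bc1 and shared 5 genes with the ranking by distance. The remaining names were Crp, Pou2f1, Nme6 and Bin1, with a smaller difference of 0.67 to 0.71. These likenesses rest on 4 arrays and on genes ranked by the values themselves.

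Other germ cell genes came from lists of pachytene, spermatid and spermatogonial genes, and 0 of those tested were 2-fold apart in both treatments. Of 6 tested pachytene genes 1 was higher on control 2 and on antibody 1 within its treatment. This was Acr, the acrosomal protease, at 35.6 and 31.0 on the antibody arrays and 34.7 and 54.2 on the control arrays. The cell cycle kinase Cdk1, which drives entry into division, had 92.5 and 119.4 on the antibody arrays and 101.8 and 127.1 on the control arrays. Of 9 tested spermatogonial genes 2 had both differences positive, Ret and Ddx4. In each of these lists 1 gene had both negative, Adam2 among the pachytene and Kit among the spermatogonial genes. Both differences were positive for 19.9% of all tested probe sets. Ret, the receptor for the niche factor GDNF, had 96.8 and 65.1 on the antibody arrays and 26.7 and 74.0 on the control arrays, so control 1 was low. Another tested probe set of Ret had 61.3 and 59.1 on the antibody arrays and 55.9 and 44.2 on the control arrays, with control 2 lowest. Ddx4, an RNA helicase found throughout the germ line, had 275.7 and 210.9 on the antibody arrays and 294.4 and 325.0 on the control arrays. No recombination gene of the list had a single-symbol probe set here.

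Somatic counterparts of testis enzymes were read in the same way. Ldhb, the heart-type lactate dehydrogenase subunit, had 1438.2 and 1248.4 on the antibody arrays and 1497.0 and 1401.8 on the control arrays. Pdha1, the somatic pyruvate dehydrogenase subunit, had 141.7 and 137.5 on the antibody arrays and 225.2 and 172.2 on the control arrays. Pgk1, the somatic phosphoglycerate kinase, had 376.5 and 299.0 on the antibody arrays and 421.7 and 331.7 on the control arrays. None of the 3 was higher on both antibody 1 and control 2 within its treatment.

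Spermatid genes other than the members were mostly dim. Of 7 with a single-symbol probe set, 2 passed the filter. Prm2, a protamine that packs sperm DNA, had 41.7 and 48.5 on the antibody arrays and 32.1 and 53.6 on the control arrays, and Acrv1, an acrosomal protein, had 61.9 and 40.5 on the antibody arrays and 62.1 and 46.0 on the control arrays. Tnp2, the second transition protein, had 2.2 and 2.7 on the antibody arrays and 1.4 and 0.8 on the control arrays. Odf1, the main outer dense fibre protein, stayed between 3.1 and 3.6 on all 4 arrays, and Akap4, of the fibrous sheath, between 0.6 and 2.2.

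The tissue and its other cells were checked with marker lists. The summed intensity of the 12 Sertoli cell markers was 10535.8 and 11374.9 on the antibody arrays and 11325.3 and 10861.4 on the control arrays, and that of 7 Leydig cell markers 2027.7 and 2192.1 on the antibody arrays and 2538.9 and 2573.9 on the control arrays. The Leydig sum was mostly Cyp17a1. The Sertoli sum was mostly Clu (6439.6 and 7459.2 on the antibody arrays, 6776.2 and 6770.0 on the control arrays), and other markers lay apart between treatments. Testin, a Sertoli cell junction protein, had 114.4 and 127.9 on the antibody arrays and 28.2 and 33.1 on the control arrays, a log2 change of 1.56 ± 0.18 (adjusted p = 0.0152 by limma). Inha, the inhibin alpha subunit, had 804.3 and 682.0 on the antibody arrays and 1588.4 and 1224.2 on the control arrays (−0.90 ± 0.19, adjusted p = 0.122 by limma). For Inha a less bright probe set had 501.2 and 502.7 on the antibody arrays and 544.2 and 927.4 on the control arrays (−0.49 ± 0.24). Shbg, the androgen-binding protein, had 530.5 and 563.9 on the antibody arrays and 890.7 and 857.2 on the control arrays (−0.66 ± 0.16, adjusted p = 0.217 by limma). Star, which brings cholesterol into Leydig cell mitochondria, had 25.5 and 12.8 on the antibody arrays and 75.9 and 86.2 on the control arrays. The value on antibody 2 was below the filter level. Star gave a log2 change of −1.49 ± 0.23 and Alas2, the erythroid haem enzyme, −1.38 ± 0.21 (adjusted p = 0.0418 each by limma). By the brightest probe set, 4 of 6 tested Leydig cell markers were lower in the antibody group and 2 higher. Fdx1 gave −0.93 ± 0.19 (adjusted p = 0.116 by limma) and Cyp11a1 0.52 ± 0.21 (adjusted p = 0.58 by limma). No probe set was called after quantile normalization, with no filter, or without either control array, so the calls of Testin, Star and Alas2 were lost there. Median centring called 4 probe sets, of which 1 was lower, so Star and Alas2 were not both called there. Defining markers such as Amh (753.6 and 758.1 on the antibody arrays, 544.4 and 498.4 on the control arrays) and Cyp17a1 (1361.0 and 1653.3, 1730.4 and 1651.1) lay above the filter level on every array. The 3 erythroid markers summed to 1864.2 and 2194.2 on the antibody arrays and 2059.5 and 3565.5 on the control arrays, so control 2 was high for these as for the later genes, while antibody 1 was not. The 7 peritubular markers summed to 3752.0 and 2747.9 on the antibody arrays and 3274.2 and 3446.8 on the control arrays, higher on antibody 1 and on control 2 within their treatments. Acta2, the brightest of them, had 1932.9 and 1144.2 on the antibody arrays and 1443.5 and 1292.5 on the control arrays, so it was lower on control 2. Of 6 tested peritubular markers 3 had both differences positive, where 19.9% of tested probe sets did. The part of the erythroid and peritubular markers in the pattern of the later genes was not tested. No marker was listed at 0. Among 5 ovary genes, Cyp19a1 (2.9 to 10.2) and Zp3 (2.8 to 4.7) were below the filter level, whereas Zp1 (37.5 to 69.9) and Zp2 (84.5 to 103.8) were above it.

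The comparison of the treatments asks whether the germ cell genes differ when FSH is suppressed. With a high and a low array in each treatment, the difference between groups was small beside the spread for the genes that varied most. In the limma fit 0 of the 10 members had an adjusted p (Benjamini-Hochberg) under 0.05, where 0.267% of all tested probe sets did. At an unadjusted p under 0.05 the count was also 0, where 8.11% of tested probe sets passed; since the members were chosen with this contrast known, nothing is read from these counts. None of the members had groups that did not overlap, against 37.4% of tested probe sets.

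Ldhc averaged 92.5 ± 72.3 on the antibody arrays and 187.6 ± 206 on the control arrays (SD, n = 2 each), a log2 change of −0.57 ± 0.71 (SE). Hspa2 averaged 250.4 ± 152 on the antibody arrays and 328.0 ± 252 on the control arrays, a log2 change of −0.27 ± 0.50. The standard error exceeded the change for both. H2bc1, at 42.4 ± 22.5 on the antibody arrays and 69.9 ± 28.9 on the control arrays, gave −0.57 ± 0.31, and Pdha2, at 70.8 ± 30.3 and 99.2 ± 27.7, gave −0.43 ± 0.27. The other later genes gave −0.27 ± 0.38 for Spa17, 0.14 ± 0.26 for Odf2 and 0.25 ± 0.26 for Tnp1. Sycp1 gave −0.15 ± 0.22, Sycp2 0.04 ± 0.19 and Sycp3 −0.29 ± 0.20; the small value of Sycp2 turned to −0.0022 after median centring of the arrays. The median change was −0.27 over the 7 later genes, of which 5 were lower and 2 higher in the antibody group, and −0.15 over the Sycp genes, of which 2 were lower and 1 higher, against 0.03 over all tested probe sets.

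Leaving out an array turned the direction of some later genes. Their median change was −0.80 without antibody 1, −0.02 without antibody 2, −0.92 without control 1 and 0.42 without control 2. For Ldhc the change ran from −1.87 without control 1 to 0.73 without control 2, and for Hspa2 from −1.10 to 0.55. Spa17, Odf2 and Tnp1 each turned sign without 1 array, whereas Pdha2 (−0.80 to −0.07) and H2bc1 (−0.97 to −0.17) stayed lower in all 4 fits. Without antibody 1 limma called 4 members lower, Ldhc, Hspa2, H2bc1 and Pdha2, with adjusted p from 2.9e-05 to 0.0497. In that fit the estimated prior degrees of freedom were infinite, so Ldhc, whose control arrays lay 2.60 apart, got a standard error of 0.249, nearly the 0.247 of Sycp1. The median of the Sycp genes was 0.16 without control 1 and between −0.15 and −0.06 without any other array.

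**Figure D4:**
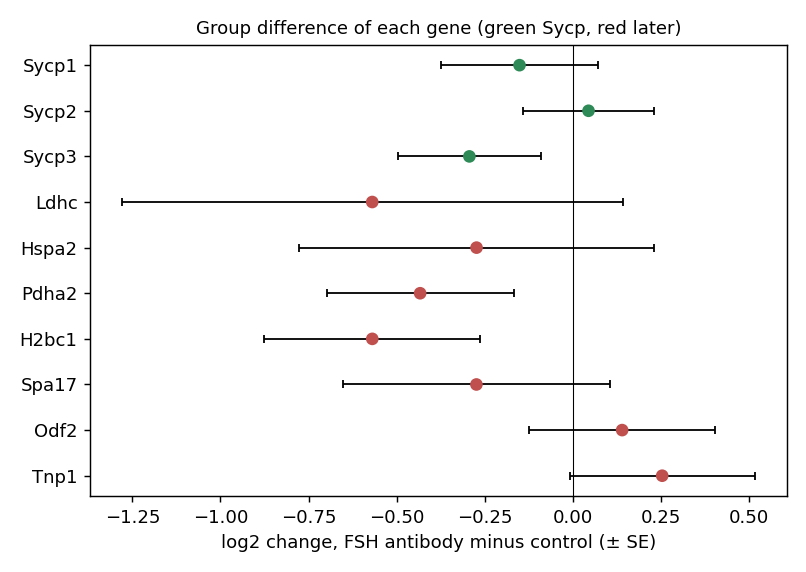
Log2 change of each gene, FSH antibody minus control, on the log2(intensity + 16) scale; bars are the standard error of the limma fit on 2 arrays per group. Bars of 7 of the 10 genes cross 0 and the longest belongs to Ldhc, at −0.57 ± 0.71.

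Among the listed genes that are no members, limma called 0 of 17 tested germ cell genes and 0 of 3 somatic counterparts, where it called 0.267% of all tested probe sets. Over every tested probe set of these genes, of which some have several, 4 had an unadjusted p under 0.05 by limma. Ccnd2, Epcam and the somatic Pdha1 were among the genes with one. Of all tested probe sets 8.11% passed, but the share for the listed genes was not worked out, so nothing is read from the count. The genes of the spermatogonial list with the smallest p were Ccnd2, Epcam and Ret. Ccnd2, a G1 cyclin, had 165.7 and 181.7 on the antibody arrays and 256.3 and 302.8 on the control arrays (−0.64 ± 0.18, adjusted p = 0.305 by limma). Epcam, a surface protein of spermatogonia, gave 0.45 ± 0.18 (adjusted p = 0.58 by limma) and Ret 0.63 ± 0.32 (adjusted p = 0.678 by limma). Another tested probe set of Ret gave 0.21 ± 0.19. In the pachytene list Crem, the cAMP-responsive activator of spermatid genes, had 114.0 and 108.0 on the antibody arrays and 149.8 and 139.9 on the control arrays, a change of −0.34 ± 0.17 (adjusted p = 0.65 by limma), Adam2, a sperm surface protein, gave 0.46 ± 0.26 (adjusted p = 0.705) and Acr −0.28 ± 0.22 (adjusted p = 0.825). Pdha1 gave −0.45 ± 0.19 (adjusted p = 0.58 by limma), Pgk1 −0.15 ± 0.19 (adjusted p = 0.892) and Ldhb −0.11 ± 0.16 (adjusted p = 0.904). A less bright tested probe set gave −0.05 ± 0.18 for Pdha1, 0.03 ± 0.17 for Pgk1 and 0.13 ± 0.16 for Ldhb. Prm2 (0.08 ± 0.23) and Acrv1 (−0.07 ± 0.22) had adjusted p of 0.96 and 0.964.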

How the data were processed

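Testis RNA was hybridised to 4 Affymetrix arrays, 2 per treatment; groups come from the source names. Each deposited file holds a linear intensity for every probe set; how the authors summarised probes and corrected background is not stated in the labels. The 2% trimmed mean came to about 125 on all 4 arrays, so the intensities had been scaled before they were deposited; array medians of log2 values differed by at most 0.103.

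Symbols were updated through Entrez identifiers with a RefSeq table of GRCr8: 7018 of 8799 probe sets had 1 symbol, 308 several and 1473 none. After 59 controls were left out, 5252 probe sets at or above the 40th percentile of mean log2(intensity + 16) were compared with limma 3.58.1 in R 4.3.3 (lmFit, eBayes with an intensity trend, two-sided, Benjamini-Hochberg, threshold 0.05). These functions were tested on simulated data. Where a gene had several probe sets, the brightest was used. Differences between single arrays were described against all tested probe sets.

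Members and lists were chosen with earlier results of these data known. Named genes were all members, the 12 nearest to the mean profile of Ldhc, Hspa2 and Spa17, the 12 leading genes in each direction of the differences within treatments and the 3 genes of each germ cell list with the smallest p; genes outside this rule were chosen after their values were seen. Alternatives were quantile normalization, median centring, constants of 1 and 64, no filter or the 60th percentile, no intensity trend, an unadjusted p, each array left out, the replicate number as a block and the mean of probe sets. The number of arrays limits the precision.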

Additional observations from a re-analysis of the deposited data

How the results depend on the processing

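No member was called under any alternative except without antibody 1; leaving out 1 array gave 0 to 4 called members. Over all probe sets 14 were called, against 0 with quantile normalization (420 at an unadjusted p under 0.05 by limma), 4 with median centring, 0 with no filter (702 at an unadjusted p under 0.05), 426 at an unadjusted p under 0.05 and 0 to 153 without 1 array (370 and 270 at an unadjusted p under 0.05 by limma without control 1 and control 2). The replicate number as a block called 39 probe sets and 0 members. Over tested probe sets, control 2 minus control 1 correlated at 0.00386 with antibody 2 minus antibody 1. Whether same-numbered arrays share more than a number was not tested. Leaving out 1 array called 0 to 1 of the other germ cell genes (Ret, higher, without antibody 2, a fit that also had infinite prior degrees of freedom), moved the median change of the Sycp genes over −0.15 to 0.16 and that of the later members over −0.92 to 0.42. In the settings that keep all 4 arrays, the direction of each member's change held except for Sycp2. The median differences within treatments of the later and of the Sycp genes kept their direction in the settings run with all 4 arrays; single genes were not run. The count of probe sets 2-fold apart in both, an analysis chosen after seeing the data, was 7 with a constant of 1 and 1 with a constant of 64. H2bc1 and Tnp1 were too dim to be tested at the 60th percentile filter. The cause of these changes was not tested, beyond the number of probe sets or arrays that a setting changes.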

Other observations

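Genes with the opposite pattern, higher on control 1 than control 2 and on antibody 2 than antibody 1, were ranked in the same way. The leading one was Nos2, the inducible nitric oxide synthase, at 15.4 and 57.1 on the antibody arrays and 106.7 and 27.1 on the control arrays. It was followed by Agxt, a peroxisomal aminotransferase, at 27.3 and 63.5 on the antibody arrays and 68.2 and 21.3 on the control arrays. C5ar1, a complement receptor of myeloid cells, had 23.8 and 64.4 on the antibody arrays and 59.2 and 25.3 on the control arrays. The 3 other tested probe sets of Agxt did not all share this direction, 1 of them being higher on antibody 1 by 0.51 on the log2 scale, and the other probe set of C5ar1 differed little (0.01 and 0.02). Esr2, the beta oestrogen receptor, had 21.7 and 53.2 on the antibody arrays and 43.8 and 19.5 on the control arrays. Rictor, a subunit of an mTOR complex, had 134.7 and 233.1 on the antibody arrays and 272.5 and 141.2 on the control arrays. The others were Faim2, Masp1, Chd6, Id3, Ptprs, Gpr182 and Ate1, with a smaller difference of 0.56 to 0.68. Only Nos2 was at least 2-fold apart in both treatments (0.019% of tested probe sets).

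A few germ cell probe sets were picked out after their values were seen. Crisp2, a cysteine-rich secretory protein of the acrosome, was below the filter level on average and had 28.5 and 7.1 on the antibody arrays and 2.1 and 67.6 on the control arrays. Tcp11, a testis gene also below the filter level, had 6.1 and 7.0 on the antibody arrays and 5.1 and 39.0 on the control arrays. A tested probe set that pairs with several symbols, Cyct (testis cytochrome c) among them, had 93.6 and 40.4 on the antibody arrays and 46.0 and 139.3 on the control arrays. Other dim germ cell probe sets ran the other way, with control 2 lowest. Adam1a, a sperm surface protein, had 19.8 and 16.4 on the antibody arrays and 20.1 and 6.8 on the control arrays. Smcp, a sperm mitochondrial protein, had 12.8 and 21.5 on the antibody arrays and 8.4 and 5.0 on the control arrays. Oaz3, a testis ornithine decarboxylase antizyme, had 15.1 and 14.1 on the antibody arrays and 23.0 and 11.5 on the control arrays.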
